A study of Mus musculus with 5 samples.

Results

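Cathepsins are proteases of the lysosome, and the genes described here are 8 cathepsin genes (Ctsa, Ctsb, Ctsc, Ctsd, Ctsh, Ctsl, Ctss and Ctsz) with 2 other lysosomal genes, Lamp1 and Plbd1. They are 10 of the 24347 gene symbols measured, and they were chosen by name with their levels in these libraries already known, so their differences between the populations are a description. Counts of members past a threshold are printed only beside the same share of all genes. All 5 libraries were made from mammary lesions, at a precancerous stage, of MMTV-Wnt-1 transgenic mice, whose Wnt-1 transgene is driven in mammary epithelium by the MMTV long terminal repeat, on a mixed FVB, SJL and C57BL/6 background. The Krt6a+ group, labelled as keratin 6a+ precancerous stem cells, has 2 libraries, numbered 2 and 3. The WAP+ group, cells labelled by the whey acidic protein of milk, has 3 libraries, numbered 1 to 3. Each library is amplified cDNA of a small pool of cells sorted with an antibody to TVA. How TVA came to mark each population is not stated in the labels, nor whether the pools came from separate animals, so p-values measure the spread between these libraries, which may be technical.

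Lysosomal cathepsins are made as inactive precursors, carried to the lysosome by mannose 6-phosphate receptors and activated in its acid interior, which the vacuolar ATPase maintains. They fall into catalytic classes: cathepsin D is an aspartic protease, cathepsin A a serine carboxypeptidase, and cathepsins B, C, H, L, S and Z are cysteine proteases of the papain family, held in check by cystatins. In the mammary gland, lysosomal proteases are known for their part in the remodelling of the gland after lactation.

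Levels are FPKM, fragments per length of transcript and depth of the library, a scale on which genes of different length can be compared. The number of genes at FPKM 1 or more ran from 8112 to 8900 per library, and the widths of the deposited 95% intervals, read as counting error, corresponded to between 4180000 and 5870000 fragments per library. The genes that name the populations followed the labels. Krt6a had 1380 and 1133 FPKM in the Krt6a+ libraries, against 168, 50.01 and 120 FPKM in the WAP+ libraries, and Wap was listed at 0 in both Krt6a+ libraries, against 50.1, 126 and 13.9 FPKM in the WAP+ libraries. Every one of 7 epithelial marker genes was at FPKM 1 or more in each library. Summed levels of the epithelial lineage markers moved with the comparison. The 5 basal markers summed to a scaled FPKM of 2780 and 2349 in Krt6a+, against 862, 188 and 1039 in WAP+ libraries. Most of this sum was Krt14 and Krt5, which with Trp63 were higher in Krt6a+ libraries. The basal marker Acta2 went the other way, at 0.658 and 0.398 FPKM in Krt6a+, against 23.7, 25.2 and 8.36 FPKM in WAP+ libraries. Oxtr, also on the basal list, was at or near 0 throughout. The 7 luminal markers summed to 860 and 2496 in Krt6a+, against 6635, 7415 and 7363 in WAP+ libraries. Markers of blood cells, which are rich in cathepsins, were mostly at 0. Of 7 leukocyte markers, 6, among them Ptprc, Coro1a and Laptm5, were listed at 0 in all 5 libraries, and 10 of 13 macrophage markers, among them Adgre1, Lyz2 and Mrc1, were too. The macrophage list summed to a scaled FPKM of 14.8 and 17.9 in Krt6a+, against 8.87, 29.1 and 22.3 in WAP+ libraries. Its detected genes were C1qb, at 0 in every WAP+ library, Csf1r and Cd68, itself a lysosomal membrane glycoprotein. Of the dendritic cell and B cell markers, only Ccr7, at 7.87 FPKM, and Cd79a, at 3.59 FPKM, were above 0, both in Krt6a+ library 3 alone. Adipocyte markers were uneven, with summed scaled FPKM of 0 and 0.898 in Krt6a+, against 1926, 77.9 and 27.5 in WAP+ libraries, most of the WAP+ sum being Fabp4. The 6 fibroblast markers summed to 58.7 and 186 in Krt6a+, against 15.0, 9.46 and 96.4 in WAP+ libraries, most of it Dcn, while Col1a1, Col1a2 and Col3a1 were at 0 in Krt6a+ library 3 and at most 6.66 FPKM elsewhere. Endothelial markers summed to 20.5 in WAP+ library 1 and to under 1 in the other libraries. The part of these cells, and of the basal and luminal makeup, in the results below was not tested. A listed 0 needs care in these files, since Rpl10, Rpl11 and Eno1, used by nearly every cell, were listed at 0 in all 5 libraries. In pooled cells, fewer cells of a type and less RNA per cell cannot be told apart.

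The cathepsin genes did not move together. Ctsd was higher in both Krt6a+ libraries than in every WAP+ library, as was Plbd1, which was listed at 1.33 FPKM or less in the WAP+ libraries. Ctsc was lower in both Krt6a+ libraries, by a small margin in library 3. Ctsl and Ctsz were lower in Krt6a+ library 2 and higher in library 3 than in the WAP+ libraries, Ctsh was lowest in Krt6a+ library 3, and Ctsa, Ctsb and Lamp1 overlapped between the populations. Ctss was listed at 0 throughout. Of the 10 genes, 9 passed the filter of FPKM 1 or more in at least 2 libraries. After scaling of the libraries, 2 of these 9 were higher and 1 lower with no overlap between groups, beside 17.4% of all 9682 tested genes higher, 17.4% lower and 34.8% in either direction. By limma with Benjamini-Hochberg adjustment across all tested genes, 1 of the 9, Plbd1, was past the threshold of 0.05 on the higher side and 0 on the lower side, beside 0.258% and 0.434% of all tested genes, 0.692% in either direction. Plbd1 was past that threshold in 6 of 14 alternative settings and not in the other 8, among them each left-out WAP+ library, left-out Krt6a+ library 2, the pseudocount of 0.1, no filter and no mean-variance trend. At an unadjusted p under 0.05 the counts were 2 higher, Ctsd and Plbd1, and 0 lower, beside 7.66% and 9.45%, 17.1% in either direction. The genes were chosen on this comparison, so nothing is read from these counts.

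**Figure D1:**
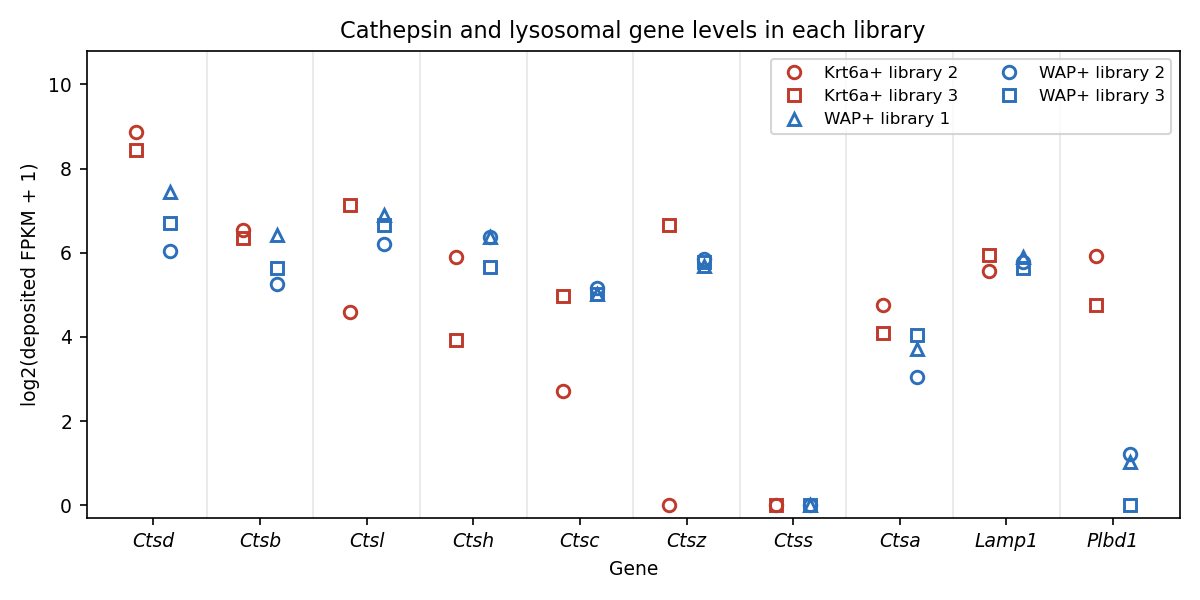
Level of each gene in each library, as log2 of the deposited FPKM plus 1, with the 2 Krt6a+ libraries left of the 3 WAP+ libraries for each gene. Ctsd and Plbd1 stand higher in both Krt6a+ libraries, Ctsl, Ctsc and Ctsz are low in Krt6a+ library 2 alone, and Ctss is at 0 in all 5 libraries.

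Ctsd encodes cathepsin D, the main aspartic protease of lysosomes. It had the highest mean level of the 10 genes in both populations, though in WAP+ library 2 it was below Ctsh and Ctsl. In mm10 its transcript, on the minus strand, takes up chr7:142375916-142387870. Ctsd had 465 and 345 FPKM in Krt6a+ libraries 2 and 3, against 173, 65.3 and 103 FPKM in WAP+ libraries 1, 2 and 3. Both Krt6a+ values exceeded the highest WAP+ value, and the deposited 95% interval of the lower Krt6a+ value, 335 to 355, lay above that of the highest WAP+ value, 166 to 181. The scaled mean of the Krt6a+ libraries was 390.2 ± 119.8 (SD, n = 2), against 113.8 ± 40.2 (SD, n = 3) for the WAP+ libraries. The difference of Ctsd on the log2(scaled FPKM + 1) scale, Krt6a+ minus WAP+, was 1.80 ± 0.43 (SE), 3.48-fold on that scale, and it lay between 1.47 and 2.22 under the 14 alternative settings, each left-out library included.

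The sequence upstream of Ctsd is shown because many lysosomal genes carry an E-box, CACGTG, near their start, the core of the CLEAR element to which TFEB and its relatives TFE3 and MITF bind. The windows are from RefSeq on GRCm38.p6, from 250 bases before to 50 after an annotated start, printed 5′ to 3′ on the strand of the gene with each CACGTG in capitals. Of the 10 genes, 8 matched the table by symbol, with 9 windows because Ctsa has 2 starts. Printed are the windows of Ctsd and Plbd1, whose higher Krt6a+ levels did not overlap the WAP+ levels, of Lamp1, the steadiest gene, and of both starts of Ctsa, whose transcripts are listed separately. The RefSeq start differs from that of the deposited transcript for Ctsd, Lamp1, Ctsl, Ctsz and Ctsc, most for Ctsl.
Ctsd, chr7:142387778-142388077, minus strand: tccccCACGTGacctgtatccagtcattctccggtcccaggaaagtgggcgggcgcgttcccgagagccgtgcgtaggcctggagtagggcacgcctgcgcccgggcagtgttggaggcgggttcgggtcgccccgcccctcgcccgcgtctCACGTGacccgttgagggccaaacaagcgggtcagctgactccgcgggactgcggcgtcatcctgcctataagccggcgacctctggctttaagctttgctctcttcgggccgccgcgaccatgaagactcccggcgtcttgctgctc
Lamp1, chr8:13158911-13159210, plus strand: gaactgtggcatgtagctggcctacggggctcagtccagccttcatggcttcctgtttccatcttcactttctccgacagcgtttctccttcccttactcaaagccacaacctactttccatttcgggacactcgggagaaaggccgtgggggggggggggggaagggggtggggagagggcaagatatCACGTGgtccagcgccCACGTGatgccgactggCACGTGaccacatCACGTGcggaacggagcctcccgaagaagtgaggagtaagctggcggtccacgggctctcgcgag
Plbd1, chr6:136661844-136662143, minus strand: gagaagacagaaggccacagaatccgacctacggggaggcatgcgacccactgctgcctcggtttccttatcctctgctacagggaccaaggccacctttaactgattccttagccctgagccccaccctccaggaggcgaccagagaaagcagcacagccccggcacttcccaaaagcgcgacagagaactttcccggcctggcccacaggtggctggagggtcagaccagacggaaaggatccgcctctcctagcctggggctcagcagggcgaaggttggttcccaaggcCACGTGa
Ctsa upstream start, chr2:164832622-164832921, plus strand: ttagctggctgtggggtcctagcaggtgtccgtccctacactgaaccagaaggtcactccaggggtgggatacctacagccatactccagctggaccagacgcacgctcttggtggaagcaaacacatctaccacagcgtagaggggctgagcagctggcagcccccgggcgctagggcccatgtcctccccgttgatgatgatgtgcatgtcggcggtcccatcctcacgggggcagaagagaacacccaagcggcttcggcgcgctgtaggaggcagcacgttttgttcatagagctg
Ctsa downstream start, chr2:164833523-164833822, plus strand: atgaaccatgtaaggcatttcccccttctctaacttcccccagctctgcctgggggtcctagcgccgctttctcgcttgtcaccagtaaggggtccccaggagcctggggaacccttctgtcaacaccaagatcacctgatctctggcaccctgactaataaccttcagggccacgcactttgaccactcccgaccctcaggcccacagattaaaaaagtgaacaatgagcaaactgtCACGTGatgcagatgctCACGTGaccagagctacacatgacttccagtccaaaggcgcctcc

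CACGTG reads the same on both strands. It stood in 5 of the 9 windows, those of Ctsd, Lamp1, Plbd1, Ctsl and the downstream start of Ctsa, beside 7.15% of 32851 RefSeq promoter windows of the same length. The longer GTCACGTG, searched on both strands and always containing CACGTG, stood in 3 of the 9 windows, beside 2.25% of all windows. These were the windows of Ctsd, Lamp1 and the downstream start of Ctsa. The Plbd1 window ends too close behind its CACGTG for the longer form to be scored there on the other strand. Lamp1 had 4 copies of CACGTG, beginning 61, 45, 28 and 15 bases before its start. Genes with the hexamer had no common pattern: Ctsd and Plbd1 were higher in both Krt6a+ libraries, Lamp1 and Ctsa overlapped between the populations and the Krt6a+ libraries stood on opposite sides for Ctsl. A match describes the letters and is neither a binding site nor a cause.

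Of the 6 cysteine cathepsins, Ctsl, Ctsz, Ctsc and Ctsh each differed more between the Krt6a+ libraries than between the means of the populations. Ctsb encodes cathepsin B, which cuts within proteins and also removes dipeptides from their end. The gene is on the plus strand at chr14:63122462-63145923. Ctsb had 92.1 and 80.1 FPKM in the Krt6a+ libraries, against 85.1, 37.3 and 49.0 FPKM in the WAP+ libraries. WAP+ library 1 lay within the Krt6a+ range, and the log2 difference of 0.55 ± 0.42 (SE) was smaller than the range of the WAP+ libraries, 0.85. Fdft1, on the opposite strand, overlaps the span of Ctsb and was at 0 in the Krt6a+ libraries but in no WAP+ library. Reads from bases that the pair shares cannot be told apart.

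Ctsl encodes cathepsin L, an endopeptidase whose loss in the mouse gives a hair and epidermal phenotype. The gene is on the minus strand at chr13:64363214-64370306. Ctsl had 23.1 and 141 FPKM in Krt6a+ libraries 2 and 3, against 118, 72.4 and 101 FPKM in the WAP+ libraries. The Krt6a+ libraries stood at either end of the 5, with deposited intervals of 20.6 to 25.6 and 135 to 146 that were narrow beside the gap between them. The log2 difference was -0.84 ± 0.66 (SE) with both Krt6a+ libraries and 0.34 without library 2, so its direction rested on 1 library.

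Ctsz encodes cathepsin Z, also called cathepsin X, a carboxypeptidase. The gene is on the minus strand at chr2:174427494-174438992, where Nelfcd overlaps it on the other strand. Ctsz was listed at 0 in Krt6a+ library 2, with a deposited upper bound of 0.194, and had 100.0 FPKM in library 3, against 50.5, 56.5 and 53.7 FPKM in the WAP+ libraries. The 3 WAP+ values were close together and lay between the Krt6a+ values. An exact 0 beside 100.0 FPKM may be a failed estimate, and each value below that uses it depends on it. Between the Krt6a+ libraries the gap of Ctsz was 6.49 on the log2(scaled FPKM + 1) scale, and 0.062% of tested genes had a gap at least as large. Without Krt6a+ library 2 the log2 difference was 0.67, against -2.57 ± 1.55 (SE) with it.

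Ctsc encodes cathepsin C, or dipeptidyl peptidase I, which activates the serine proteases of leukocyte granules. The gene is on the plus strand at chr7:88278093-88310875. Ctsc had 5.57 and 30.2 FPKM in the Krt6a+ libraries, against 31.7, 34.9 and 31.2 FPKM in the WAP+ libraries. Library 2 was far below the rest. Library 3 was under the lowest WAP+ value, but its interval, 26.8 to 33.6, held all but the highest WAP+ value. Without library 2 the log2 difference of Ctsc was -0.32, against -1.35 ± 0.64 (SE) with it.

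Ctsh encodes cathepsin H, an aminopeptidase, on the plus strand at chr9:90054267-90076095. Ctsh showed the opposite order of the Krt6a+ libraries. It had 58.5 and 14.1 FPKM in Krt6a+ libraries 2 and 3, against 82.4, 82.5 and 49.9 FPKM in the WAP+ libraries. Library 2 lay within the WAP+ range and library 3 below it. The log2 difference of -1.35 ± 0.64 (SE) was -2.44 without library 2 and -0.26 without library 3.

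Ctss encodes cathepsin S, the protease of antigen-presenting cells that trims the invariant chain from MHC class II. Both of its transcripts, on the plus strand at chr3:95526786-95556405, were listed at 0 in all 5 libraries, with both bounds at 0. No fold or upper limit was given for Ctss, since 9529 of the 24347 symbols had the same record of 0 with bounds of 0, Rpl10 and Rpl11 among them.

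Ctsa encodes cathepsin A, a serine carboxypeptidase also known as protective protein because it stabilises neuraminidase and beta-galactosidase. Summed over its 2 transcripts, Ctsa had 26.0 and 16.1 FPKM in the Krt6a+ libraries, against 12.1, 7.31 and 15.6 FPKM in the WAP+ libraries. In deposited values the Krt6a+ libraries were just higher than all WAP+ libraries. After scaling, Krt6a+ library 3 at 14.3 was below WAP+ library 3 at 17.9, and the log2 difference was 0.71 ± 0.56 (SE).

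The transcripts of Ctsa start at different places on chromosome 2, the upstream one (NM_001038492) at 164832872 and the downstream one (NM_008906) at 164833773, and both end at 164841032. The upstream transcript had 8.83 FPKM, with deposited bounds of 7.12 and 10.5, in Krt6a+ library 3. It was listed at 0 in Krt6a+ library 2 and in the 3 WAP+ libraries, with upper bounds between 0.0879 and 0.119. The downstream transcript had 26.0 and 7.25 FPKM in the Krt6a+ libraries, against 12.1, 7.31 and 15.6 FPKM in the WAP+ libraries. Only in Krt6a+ library 3 was any Ctsa assigned to the upstream start, whose window printed above has no CACGTG, while the downstream window has 2, beginning 12 bases before and 5 bases after the start. Neurl2 and Pltp, on the opposite strand, overlap Ctsa. Pltp had 0 and 60.1 FPKM in Krt6a+ libraries 2 and 3, against 17.5, 0 and 0 FPKM in the WAP+ libraries. The library kit does not mark the strand, and the part of Pltp in the Ctsa values was not tested.

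Lamp1 encodes a heavily glycosylated protein that lines the lysosomal membrane and is widely used as its marker. The gene is on the plus strand at chr8:13159135-13175338. Lamp1 had 46.7 and 60.6 FPKM in the Krt6a+ libraries, against 58.6, 53.6 and 48.7 FPKM in the WAP+ libraries. The groups overlapped, with the deposited Krt6a+ values just beyond either end of the WAP+ values. Lamp1 was the steadiest of the detected genes, at a scaled mean of 50.7 ± 4.25 (SD, n = 2) for Krt6a+, against 55.4 ± 3.77 (SD, n = 3) for WAP+ libraries. Its log2 difference was -0.13 ± 0.37 (SE). This standard error leaves room for a difference of the size seen for Ctsb, so equal levels were not shown.

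Plbd1 encodes a phospholipase B domain protein of lysosomes and granules. The gene is on the minus strand at chr6:136612071-136661893. Plbd1 had 59.9 and 26.2 FPKM in the Krt6a+ libraries, against 1.03, 1.33 and 0 FPKM in the WAP+ libraries. The 0 of WAP+ library 3 had both bounds at 0, as Rpl10 and Rpl11 had, so it may not be a measured absence. The deposited intervals did not meet: that of the lower Krt6a+ value was 23.5 to 29.0, and the highest upper bound among WAP+ libraries was 1.91. Interval widths put about 936 and 376 fragments behind the Krt6a+ values and 11.0 and 21.0 behind the WAP+ values above 0. The scaled mean was 42.2 ± 26.8 (SD, n = 2) for Krt6a+, against 0.788 ± 0.739 (SD, n = 3) for WAP+ libraries. The log2 difference was 4.54 ± 0.73 (SE), 23.2-fold on the log2(scaled FPKM + 1) scale. The size depended on the pseudocount, with 6.13 at a pseudocount of 0.1 and 2.91 at 5. Without WAP+ library 3 it was 4.17.

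Summed over the 8 cathepsins, the scaled FPKM was 685 and 643 in the Krt6a+ libraries, against 485, 392 and 462 in the WAP+ libraries. Both Krt6a+ sums were higher than every WAP+ sum. Ctsd was 69.4% and 47.5% of the cathepsin sum in the Krt6a+ libraries, against 31.3%, 18.3% and 25.5% in the WAP+ libraries. The 6 cysteine cathepsins together had 183 and 324 in the Krt6a+ libraries, against 323, 312 and 326 in the WAP+ libraries. Krt6a+ library 3 thus lay within the WAP+ range of the cysteine sum with another makeup, more Ctsl and Ctsz and less Ctsh, while library 2, with Ctsz entered at 0, stood below. The ratio of Ctsd to this sum was 2.60 and 0.944 in the Krt6a+ libraries, against 0.471, 0.230 and 0.362 in the WAP+ libraries, with no overlap.

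**Figure D2:**
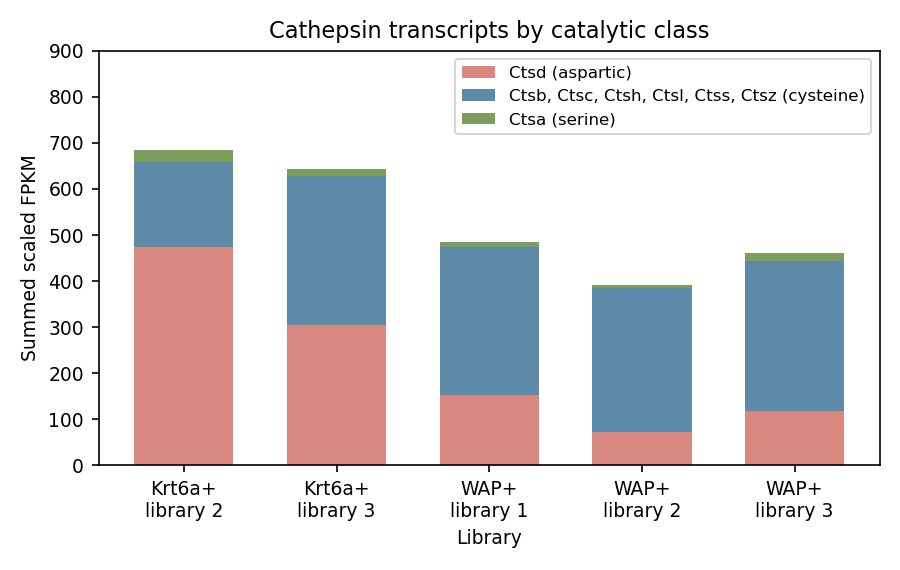
Scaled FPKM of the 8 cathepsins summed by catalytic class in each library, with bars stacked from 0. Ctsd is the larger part in Krt6a+ library 2 and close to the cysteine class in Krt6a+ library 3, while in the 3 WAP+ libraries the cysteine class, at 312 to 326, is the larger part.

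The Krt6a+ libraries differed from each other in these genes. Over the 9 tested members the median distance from the WAP+ mean, as an absolute log2 difference, was 2.02 for Krt6a+ library 2 and 0.35 for library 3, beside 0.92 and 0.85 over all tested genes. Between the Krt6a+ libraries the median gap over the members was 1.36, beside 0.85 over all tested genes, and the members' median range over the WAP+ libraries was 0.66, beside 1.13. Ctsl, Ctsh and Ctsc each had a gap between the Krt6a+ libraries of over 2 on the log2 scale, and 11.2%, 13.5% and 15.2% of tested genes had one as large. The genes at the other extreme were Lamp1 and Ctsb, whose gaps were met or passed by 86.0% and 72.1% of tested genes. The luminal keratin Krt8 split the same libraries, at 66.2 and 719 FPKM in Krt6a+ libraries 2 and 3, against 1664, 1917 and 1681 FPKM in the WAP+ libraries, and its part in these values was not tested.

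**Figure D3:**
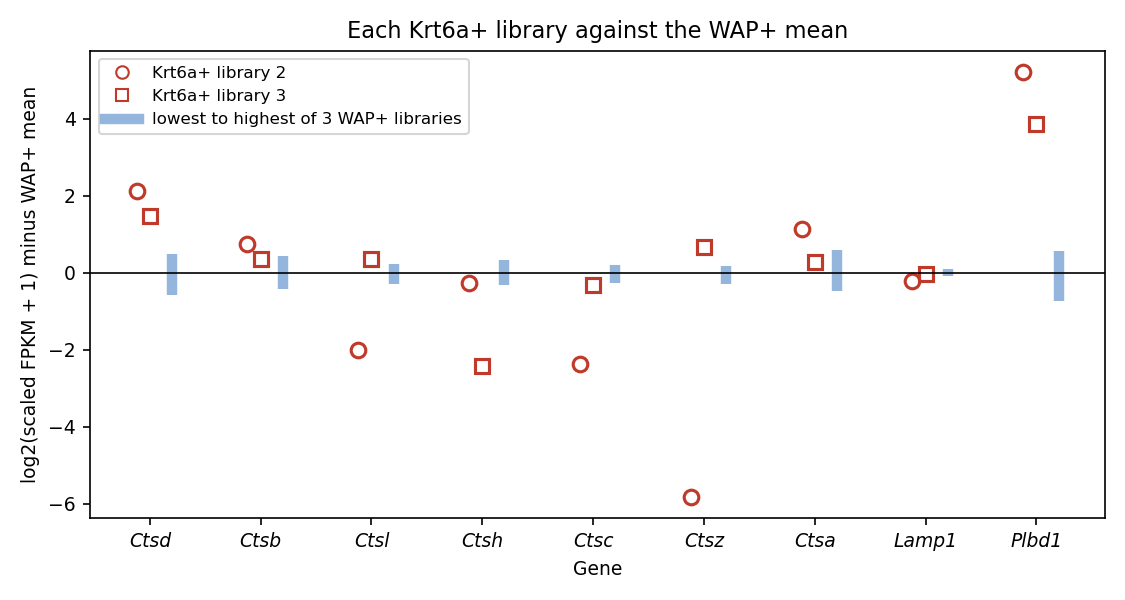
Distance of each Krt6a+ library from the WAP+ mean, in log2(scaled FPKM + 1), for the 9 tested genes, with bars for the range of the 3 WAP+ libraries. Both Krt6a+ points lie above the WAP+ bar for Ctsd and Plbd1, and on opposite sides of it for Ctsl and Ctsz.

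Ordered by mean scaled level, the Krt6a+ libraries gave Ctsd, Ctsb, Ctsl, Lamp1, Ctsz, Plbd1, Ctsh, Ctsa, Ctsc and Ctss, and the WAP+ libraries Ctsd, Ctsl, Ctsh, Ctsb, Ctsz, Lamp1, Ctsc, Ctsa, Plbd1 and Ctss. In Krt6a+ libraries the lowest Ctsd value was above the highest Ctsb value, and the lowest Ctsc value above the highest Ctss value. No other neighbours were separated in that way. In WAP+ libraries Lamp1 was above Ctsc, Ctsc above Ctsa, and Ctsa above Plbd1 in all libraries, while the neighbours from Ctsd down to Lamp1 overlapped.

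The rest of the lysosomal pathway was described with lists grouped by role, 176 genes in all in the files, of which 123 were tested. None passed limma's adjusted threshold in either direction, beside 0.258% of all tested genes higher and 0.434% lower. At an unadjusted p under 0.05, 15 of the 123 were higher and 7 lower in Krt6a+ libraries, which is 12.2% and 5.69%, beside 7.66% and 9.45% of all tested genes. Genes with groups that did not overlap numbered 37 higher and 13 lower, 30.1% and 10.6%, beside 17.4% and 17.4% of all tested genes. The median log2 difference was 0.26 over the 123 and -0.01 over all tested genes, and 72 differences were positive and 51 negative, 58.5% positive beside 49.8% of all tested genes. In the following, every gene named missed the adjusted threshold, and differences are log2, Krt6a+ minus WAP+, with limma's adjusted p.

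**Figure D4:**
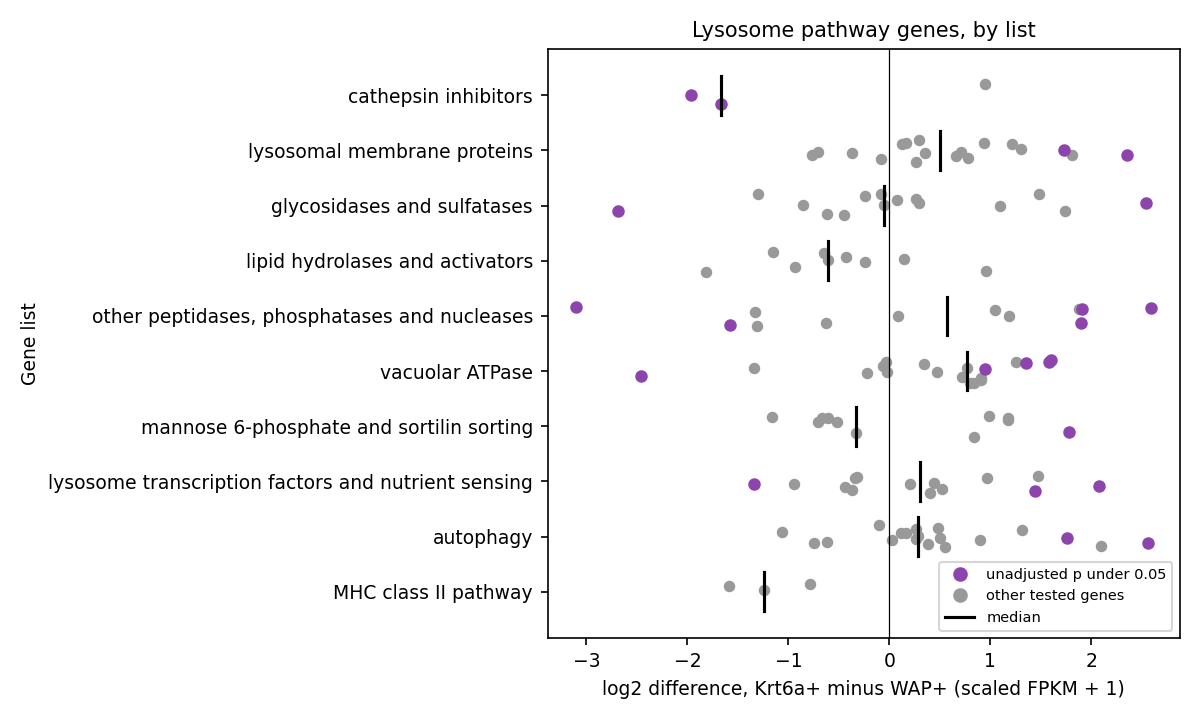
Log2 difference, Krt6a+ minus WAP+, of each tested pathway gene by list, with the list median as a bar and genes at an unadjusted p under 0.05 in purple. No gene passed after adjustment; the medians are 0.77 for the vacuolar ATPase list and -1.67 for the 3 cathepsin inhibitors.

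No other cathepsin gene reached the filter. Of 15 further cathepsins, among them Ctsk of osteoclasts, Ctse, Ctsf, Ctso and Ctsw, 0 were tested, and the highest value was 2.86 FPKM, for Ctso in WAP+ library 2. The 3 tested inhibitors of cysteine cathepsins had a median of -1.67. Cstb, the intracellular inhibitor stefin B, had 1149 and 1471 FPKM in the Krt6a+ libraries, against 3964, 4419 and 3173 FPKM in the WAP+ libraries. The groups did not overlap, and the difference was -1.67 ± 0.34 (SE; limma, adjusted p = 0.0685); over the fewer genes left by a filter of FPKM 5, limma's adjusted p was 0.0473. Cstb was above every cathepsin in all 5 libraries. Cst3, the secreted cystatin C, had 412 and 433 FPKM in the Krt6a+ libraries, against 2731, 1836 and 689 FPKM in the WAP+ libraries, again without overlap (-1.96 ± 0.50 SE; limma, adjusted p = 0.113). Cst6, the epidermal cystatin M, was low, at 2.99 and 2.25 FPKM in Krt6a+, against 1.46, 1.33 and 0.0368 FPKM in WAP+ libraries (limma, adjusted p = 0.504).

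Of 19 tested vacuolar ATPase genes, which encode the proton pump of the lysosome, 13 had positive differences (68.4%, beside 49.8% of all tested genes), with a median of 0.77. At an unadjusted p under 0.05, 4 were higher and 1 lower (21.1% and 5.26%, beside 7.66% and 9.45%). Atp6v1d, a subunit of the rotor stalk, had 96.5 and 71.9 FPKM in Krt6a+ libraries, against 27.3, 31.0 and 17.7 FPKM in WAP+ libraries (1.60 ± 0.44 SE; limma, adjusted p = 0.126). Atp6v1a, the catalytic subunit, had 32.2 and 40.4 FPKM against 12.6, 14.2 and 10.6 FPKM in the WAP+ libraries (1.35 ± 0.45 SE; limma, adjusted p = 0.180). Both genes had higher values in each Krt6a+ library than in any WAP+ library. Atp6v1b1, the B subunit isoform of acid-secreting epithelia, was listed at 0 in both Krt6a+ libraries, against 9.67, 2.63 and 3.08 FPKM in the WAP+ libraries (limma, adjusted p = 0.127).

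Among 18 tested lysosomal membrane genes 14 differences were positive (77.8%, beside 49.8% of all), with a median of 0.51. Ctns, the cystine exporter, had 16.8 and 20.8 FPKM in Krt6a+ libraries, against 2.29, 3.45 and 2.13 FPKM in WAP+ libraries (2.35 ± 0.58 SE; limma, adjusted p = 0.103). Laptm4b, a membrane protein of late endosomes, had 58.4 and 16.2 FPKM against 9.92, 4.21 and 11.6 FPKM in the WAP+ libraries (limma, adjusted p = 0.273). The groups were apart for both genes, for Ctns by a wide margin. Atp13a2, a polyamine transporter, stayed under 3 FPKM everywhere (limma, adjusted p = 0.317).

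The soluble hydrolases went both ways. The median was -0.05 over 15 glycosidases and sulfatases and -0.61 over 9 lipid hydrolases and activators. Hyal1, a hyaluronidase, had 25.2 and 103 FPKM in Krt6a+ libraries, against 10.5, 3.35 and 10.4 FPKM in WAP+ libraries (2.54 ± 0.70 SE; limma, adjusted p = 0.128). Gusb, the beta-glucuronidase, was listed at 0 in both Krt6a+ libraries, against 7.42, 10.4 and 1.65 FPKM in the WAP+ libraries (limma, adjusted p = 0.141). Hexa, a subunit of hexosaminidase, had 10.6 and 5.39 FPKM in Krt6a+, against 4.72, 0.237 and 1.14 FPKM in WAP+ libraries (limma, adjusted p = 0.320). Lipa, the lysosomal acid lipase, had 1.70 and 0 FPKM in Krt6a+, against 2.06, 8.09 and 5.39 FPKM in WAP+ libraries (limma, adjusted p = 0.311). Gm2a, the GM2 activator, and Ppt2, a thioesterase, had negative differences of -1.15 and -0.93 (limma, adjusted p = 0.477 and 0.465).

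Among 12 other peptidases, phosphatases and nucleases, 3 were higher and 2 lower at an unadjusted p under 0.05. These are 25.0% and 16.7% of the list, beside 7.66% and 9.45% of all tested genes. Scpep1, a serine carboxypeptidase related to cathepsin A, had 38.9 and 14.0 FPKM in Krt6a+ libraries, against 4.15, 4.97 and 0.828 FPKM in WAP+ libraries (2.59 ± 0.78 SE; limma, adjusted p = 0.150). Acp5, the tartrate-resistant acid phosphatase, had 11.0 and 33.9 FPKM against 7.02, 2.74 and 3.43 FPKM in the WAP+ libraries (1.90 ± 0.64 SE; limma, adjusted p = 0.188). Ifi30, the thiol reductase that opens disulfides for antigen processing, went the other way, with 1.74 and 31.7 FPKM in Krt6a+ libraries, against 132, 72.3 and 41.6 FPKM in WAP+ libraries (-3.10 ± 0.92 SE; limma, adjusted p = 0.148). Without Krt6a+ library 3, which had most of the Krt6a+ signal, Ifi30 passed at a log2 difference of -4.77 (limma, adjusted p = 0.0164), with 1 Krt6a+ library assumed to vary like the WAP+ ones.

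The sorting genes had a median of -0.33 over 11 tested. Sort1, the sortilin receptor, had 6.74 and 2.97 FPKM in Krt6a+ libraries, against 0, 0.534 and 1.19 FPKM in WAP+ libraries (1.78 ± 0.70 SE; limma, adjusted p = 0.249). Gga1, an adaptor of the mannose 6-phosphate receptors, and Ap3d1, a subunit of the AP-3 coat, both had differences of 1.17 with overlapping groups (limma, adjusted p = 0.447 and 0.412). Of the transcription factors that bind CACGTG in lysosomal promoters, Mitf had 2.78 and 4.30 FPKM in Krt6a+ libraries, against 0.0531, 0 and 0 FPKM in WAP+ libraries (2.08 ± 0.54 SE; limma, adjusted p = 0.117). Tfeb and Tfe3, given here as the relatives of Mitf, overlapped between the populations. Tfeb had 0.583 and 5.61 FPKM in Krt6a+ libraries, against 5.84, 0.677 and 4.29 FPKM in WAP+ libraries (-0.37 ± 0.89 SE; limma, adjusted p = 0.885). Tfe3 had 4.40 and 21.2 FPKM against 8.01, 5.82 and 9.99 FPKM in the WAP+ libraries (0.20 ± 0.70 SE; limma, adjusted p = 0.921). In the same list of 14 tested genes, with a median of 0.30, the Ragulator subunits Lamtor3 and Lamtor5 went opposite ways, with differences of 1.44 ± 0.62 and -1.34 ± 0.54 (SE; limma, adjusted p = 0.287 and 0.261).

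Autophagy genes had a median of 0.28, with 15 of 19 differences positive (78.9%, beside 49.8% of all tested genes). Groups did not overlap for 5 genes higher and 0 lower in Krt6a+ libraries. These are 26.3% and 0% of the list, beside 17.4% and 17.4% of all tested genes. Atg7, which activates the ubiquitin-like conjugation of autophagy, had 7.88 and 3.78 FPKM in Krt6a+ libraries, against 0.225, 0 and 0 FPKM in WAP+ libraries (2.56 ± 0.62 SE; limma, adjusted p = 0.101). Optn, an autophagy receptor, had 32.2 and 18.0 FPKM against 8.48, 4.39 and 5.46 FPKM in the WAP+ libraries (1.76 ± 0.56 SE; limma, adjusted p = 0.169), and Atg16l1 a difference of 1.31 ± 0.57 (SE; limma, adjusted p = 0.296). These 3 had groups without overlap. The MHC class II genes that work with cathepsin S were close to 0. Of 9, 3 were tested, Cd74, H2-DMa and H2-Oa, each listed at 0 in both Krt6a+ libraries and at most 4.81 FPKM in a WAP+ library, with limma adjusted p from 0.311 to 0.529.

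For each member, the tested pathway gene with the most similar pattern over the 5 libraries was found from the Pearson r of log2 values. With 123 candidates and 5 libraries that share the 2 populations, high values arise easily, and the r, from 0.952 to 0.997, is a description. The closest were Dpp7, a dipeptidyl peptidase, for Ctsd; Atp6ap1, an accessory protein of the proton pump, for Plbd1; Gm2a for both Ctsc and Ctsz; Atg3 for Ctsl; Lamtor5 for Ctsh; Hexa for Ctsb; Laptm4b for Ctsa; and Cpq, a carboxypeptidase, for Lamp1. Dpp7 had 9.30 and 8.23 FPKM in Krt6a+ libraries, against 4.76, 2.45 and 3.32 FPKM in WAP+ libraries, with the libraries in the same order as for Ctsd.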

How the data were processed

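RNA-seq of 2 Krt6a+ and 3 WAP+ sorted pools was analysed from the deposited tables, 1 per library, with 34535 RefSeq transcripts each. Per the submitters' processing notes the authors used TopHat and Cufflinks on mm10; no version or read filter is named in the labels. Per the file headers, each deposited table gives FPKM, which the authors scaled to transcript length and depth. It also gives a deposited 95% interval on the same signal scale. That interval is within a library and does not hold the spread between libraries. Its width was read here as counting error, and the fragments this gives are approximate. Amplification from few cells adds scatter and can drop transcripts. Of FPKM values that stood for up to 200 fragments, only 3.8% to 4.4% came out whole (tolerance 0.02), so reads could not be recovered and no count test was run.

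Transcripts were summed per symbol and divided by a median-ratio factor per library (0.873 to 1.14, from 5334 genes with FPKM of at least 1 in each library). Genes at FPKM 1 or more in at least 2 libraries, 9682 in all, were compared as log2(scaled FPKM + 1) with limma 3.58.1 in R 4.3.3 (eBayes with trend, two-sided, Benjamini-Hochberg over all tested genes, threshold 0.05); fold changes on this scale understate those of low genes. In libraries simulated at this design, the procedure recovered 0 of 600 changed genes at 4-fold, 78.3% at 16-fold and 94% at 64-fold. Only genes of higher mean level were changed there, so low genes were not covered. A gene that misses the threshold is thus not shown to be unchanged. SE is limma's moderated standard error, and SD is over scaled FPKM. An exact permutation test of 2 against 3 libraries cannot go below p = 0.1 and was not used.

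The members and gene lists were chosen with earlier results of these data known. Named pathway genes are the up to 3 of each list with the largest absolute moderated statistic, plus the pathway gene most like each member; Ctso, Tfeb, Tfe3, Rnaset2a, Rnaset2b, the overlapping genes, markers such as Krt8, Rpl10, Rpl11 and Eno1 were named after their values were seen. Transcript spans are 1-based in mm10, promoter windows are RefSeq on GRCm38.p6, and strands come from GENCODE M21 on the same build.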

Additional observations from a re-analysis of the deposited data

How the results depend on the processing

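Of the 9 tested members, Ctsa, Ctsb, Ctsc, Ctsd, Ctsh and Plbd1 kept their direction under all 14 alternatives, and their log2 differences ran from 0.28 to 1.14, 0.30 to 0.76, -2.36 to -0.32, 1.47 to 2.22, -2.44 to -0.26 and 2.91 to 6.13. Leaving out 1 library, Ctsl ran from -2.01 to 0.34 and Ctsz from -5.77 to 0.67, with the positive values when Krt6a+ library 2 was left out, and with quantile normalization Lamp1 was at 0.00. The members' median, -0.13, ran from -0.20 to 0.34 when 1 library was left out. Genes past the threshold, 25 higher and 42 lower in Krt6a+ libraries, numbered 6 and 20 with a pseudocount of 0.1, 2 and 3 with no filter, 71 and 92 with a filter of FPKM 5, and 7 and 9 with no mean-variance trend. There were 41 higher with a pseudocount of 5, 39 higher and 39 lower with quantile normalization, and 27 lower with no scaling. Leaving out 1 library gave 2 to 44 higher and 3 to 103 lower. Without WAP+ library 1, 2 or 3 there were 2 higher each time and 4, 3 and 4 lower, while leaving out Krt6a+ library 2 gave 10 higher and 56 lower, and library 3 gave 44 and 103. The cause was not tested.

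Pathway genes stayed at 0 higher under every alternative. They were at 0 lower except for 1 with the filter of FPKM 5, Cstb (log2 -1.67, limma, adjusted p = 0.0473), and 1 without Krt6a+ library 3, Ifi30, so leaving out 1 library gave 0 to 1. A replicate block on the shared numbers 2 and 3 gave 15 higher and 19 lower genes and 0 pathway genes, and Plbd1 was no longer past the threshold. Deviations of same-numbered libraries correlated at 0.05 and 0. Deviations of the 2 Krt6a+ libraries are mirror images of each other, so these correlations cannot show or exclude pairing. Whether same-numbered libraries share more than a number is not stated in the labels. The number of libraries, 2 against 3, limits the precision of every difference, and values of low FPKM rest on few fragments.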

Other observations

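Of the genes that overlap a member on the opposite strand, chosen after their values were seen, Neurl2 was at 0 in all 5 libraries, and Pltp, Fdft1 and Nelfcd varied by library. Fdft1, squalene synthase, overlaps Ctsb. It was listed at 0 in Krt6a+ libraries 2 and 3, against 27.6, 9.39 and 14.7 FPKM in the WAP+ libraries (limma, adjusted p = 0.0448). Nelfcd overlaps Ctsz and had 10.3 and 0 FPKM in Krt6a+ libraries, against 8.89, 0 and 0 FPKM in WAP+ libraries. The overlap is of whole gene spans. Without strand, reads from bases that such a pair shares cannot be told apart.

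The near-identical lysosomal ribonuclease genes Rnaset2a and Rnaset2b alternated. Rnaset2a had 0 and 2.89 FPKM in Krt6a+ libraries, against 0, 21.5 and 0 FPKM in WAP+ libraries, and Rnaset2b had 7.01 and 0 FPKM in Krt6a+ libraries, against 25.0, 0 and 12.7 FPKM in WAP+ libraries. In no library were both above 0, and the split of reads between the copies is uncertain.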
